A study of Homo sapiens with 6 samples.

Results

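The genes described here make, consume or sense sphingosine phosphate (S1P) and ceramide. They are SPHK1, SPHK2, SGPL1, SGPP1, SPTLC1, SPTLC2, CERS2, CERS6, UGCG and S1PR1, followed through every array probe set whose platform annotation names 1 of these 10 genes and no other gene. The rule found 23 probe sets among the 41091 of the array that name a single gene. It found none for SPHK2, which is therefore named without values, and the other 9 genes had between 1 and 5 probe sets each. The genes were proposed with this same contrast in view, SPHK1 among them for its large difference, so their values are given as a description, no p-value is given for any of them, and "higher" and "lower" of these genes refer to measured means.

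RNA came from the engineered human line U937T:PLZF-RARa, a derivative of the monocytic line U937, at 48 h. In the induced group (n = 3) the fusion protein PLZF-RARα was switched on by washing the cells and withdrawing tetracycline from the medium. The uninduced group (n = 3) stayed in tetracycline. Both groups were kept under puromycin and G418, and both carry the inducible construct. A line without the fusion was not analysed here, so the fusion, the washing and the loss of the antibiotic cannot be told apart. Each sample was hybridised to 1 Affymetrix HG-U133 Plus 2.0 array. The labels do not say whether replicates were separate cultures. The p-values set each difference against the spread between these samples, which may not be the spread between cultures. With 3 arrays per group the precision is limited.

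Sphingolipids are built from serine and palmitoyl-CoA by serine palmitoyltransferase, whose product is reduced, acylated by ceramide synthases and desaturated to ceramide. Ceramide is turned into sphingomyelin or glycosphingolipids, or hydrolysed to sphingosine, which sphingosine kinases phosphorylate to S1P. S1P acts through G protein-coupled receptors that guide leukocyte traffic, and it is removed by phosphatases or split irreversibly by S1P lyase. Ceramide is commonly described as favouring growth arrest and cell death and S1P as favouring survival.

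Values are the authors' GCRMA intensities on a log2 scale. A probe set counted as measured where its log2 intensity was above 4 on at least 3 of the 6 arrays, which held for 20552 probe sets of the array and for 17 of the 23 described here. The RARA probe set 211605_s_at averaged 7.58 ± 0.17 in induced and 1.87 ± 0.10 in uninduced cells (SD, n = 3 each), at least 12.0-fold higher against the filter level (limma, adjusted p = 1.90e-07). The other RARA probe sets did not follow it: 203749_s_at was lower (-1.17, adjusted p = 1.10e-05), 203750_s_at (-0.22, adjusted p = 0.133) and 216300_x_at (-0.12, adjusted p = 0.301) missed the threshold, and 1565358_at was below the filter. ZBTB16, the gene of the PLZF part, averaged 3.29 ± 0.59 in induced and 5.25 ± 0.21 in uninduced cells (SD, n = 3 each) in its probe set 205883_at, which was called lower (limma, adjusted p = 8.12e-04). Which part of either transcript these probe sets cover was not analysed here. Uninduced replicate 3 stood somewhat apart, with a 75th percentile of 6.92 against 7.11 to 7.18 on the other 5 arrays. The gap between the 3′ and 5′ probe sets for GAPDH, a sign of RNA integrity, was 0.55 to 0.62 on the log2 scale in induced and 0.48 to 0.53 in uninduced cells; its part in any result was not tested. Of 8 lineage markers with a probe set, PTPRC, CD4, LYZ, ITGAM and SPI1 were measured and MPO, CSF1R and CD14 were not, and their summed log2 level was 53.1 to 53.6 in induced and 54.3 to 55.0 in uninduced cells. Single markers moved in opposite directions beneath that sum. SPI1 averaged 3.16 in induced and 7.12 in uninduced cells, at least 8.70-fold lower (limma, adjusted p = 4.32e-06). It was above the filter on every uninduced array and on no induced array, so its separation follows from the filter. The same holds for ZBTB16 205883_at and, with the groups exchanged, for RARA 211605_s_at. Both LYZ probe sets were lower (-1.25 and -0.85). The 3 measured PTPRC probe sets were higher by 1.77 to 2.25, CD4 by 0.24 and ITGAM by 0.99. Of 12 markers of T, B, epithelial, erythroid and fibroblast cells only KRT8 and COL1A1 were measured, with a summed log2 level, over the brightest probe set of each marker, of 40.8 to 41.6 in induced and 41.6 to 41.9 in uninduced cells. The measured COL1A1 probe sets did not move together. Probe set 1556499_s_at averaged 9.09 in induced and 2.36 in uninduced cells. It was above the filter on every induced array and on no uninduced array, so its separation too follows from the filter. Nearer the filter, 202310_s_at averaged 4.63 in induced and 4.12 in uninduced cells and was called higher (limma, adjusted p = 0.0325). In contrast, 217430_x_at averaged 7.71 in induced and 8.26 in uninduced cells. COL1A2 and COL3A1 were below the filter, and the part of such markers in the results was not tested. In bulk RNA, fewer cells with a transcript and less transcript per cell cannot be told apart.

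SPHK1 showed the largest difference among the measured probe sets of these genes. It encodes the mainly cytosolic sphingosine kinase that forms S1P at the plasma membrane. Its single probe set, 219257_s_at, had log2 intensities of 3.43, 5.23 and 4.12 in induced cells, against 9.27, 9.06 and 9.06 in uninduced cells. The groups did not overlap, and the uninduced arrays lay close together while the induced arrays lay on both sides of the filter. The means were 4.26 ± 0.91 in induced and 9.13 ± 0.12 in uninduced cells (SD, n = 3 each), a difference of -4.87. No fold is given, because only 2 of the 3 induced arrays were above the filter. With values under the filter raised to it the difference was -4.68, and without that step, leaving out 1 array at a time moved the difference between -5.36 and -4.46.

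The platform gives no start site for a probe set, and RefSeq lists 3 for SPHK1. The 250 bases before each are shown, from RefSeq on GRCh38.p14, because SPHK1 differed most. The same window is shown for UGCG and SGPL1, the genes whose measured probe sets were all higher by over 0.5. Capitals mark, on either strand, GGGCGG (a GC box), GCGGGGGCG (an EGR-type site) and TGACTCA (an AP-1 site).
SPHK1 window 1, chr17:76382954-76383203, plus strand: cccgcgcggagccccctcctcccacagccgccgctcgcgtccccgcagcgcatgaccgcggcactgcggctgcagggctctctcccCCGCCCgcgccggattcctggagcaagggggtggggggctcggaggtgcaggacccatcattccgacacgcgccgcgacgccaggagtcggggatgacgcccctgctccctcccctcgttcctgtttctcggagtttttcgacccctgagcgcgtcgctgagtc
SPHK1 window 2, chr17:76384359-76384608, plus strand: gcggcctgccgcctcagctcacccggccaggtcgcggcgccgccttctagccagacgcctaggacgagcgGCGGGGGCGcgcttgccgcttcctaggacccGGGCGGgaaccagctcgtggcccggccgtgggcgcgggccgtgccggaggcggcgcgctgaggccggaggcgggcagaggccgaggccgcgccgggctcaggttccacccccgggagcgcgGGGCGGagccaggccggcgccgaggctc
SPHK1 window 3, chr17:76385028-76385277, plus strand: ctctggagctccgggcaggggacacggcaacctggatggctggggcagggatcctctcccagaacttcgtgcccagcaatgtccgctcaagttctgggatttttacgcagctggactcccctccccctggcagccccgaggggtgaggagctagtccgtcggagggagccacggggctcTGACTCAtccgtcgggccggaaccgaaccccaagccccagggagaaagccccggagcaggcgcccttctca
UGCG, chr9:111896564-111896813, plus strand: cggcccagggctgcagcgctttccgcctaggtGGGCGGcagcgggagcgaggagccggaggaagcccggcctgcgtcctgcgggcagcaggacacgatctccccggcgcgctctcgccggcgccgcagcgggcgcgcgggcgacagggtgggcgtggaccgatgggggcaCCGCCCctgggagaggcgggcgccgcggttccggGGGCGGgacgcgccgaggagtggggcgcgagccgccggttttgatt
SGPL1, chr10:70815698-70815947, plus strand: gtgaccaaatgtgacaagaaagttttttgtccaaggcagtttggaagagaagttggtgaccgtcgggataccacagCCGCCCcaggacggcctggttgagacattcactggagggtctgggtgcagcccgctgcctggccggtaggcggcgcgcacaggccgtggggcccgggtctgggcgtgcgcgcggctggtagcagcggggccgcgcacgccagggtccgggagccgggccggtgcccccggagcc

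The second SPHK1 window held GCGGGGGCG, starting 180 bases before the start site, and 2 GC boxes. The third held TGACTCA, starting 71 bases before its start site. GCGGGGGCG occurred on either strand in 4.72% and TGACTCA in 4.2% of 35116 such windows of all genes, and each occurred in 1 of the 11 windows of the 8 genes matched here. GC boxes occurred in 8 of the 11 windows and in 42.6% of all windows, and the share of G and C was 56.4 to 80.8% in these windows, against a median of 58.0% over all windows. The nuclear receptor half-site AGGTCA, present in 12.1% of all windows, and the E-box CACGTG, present in 6.34%, were in none of the 11. The letters GCGTGGGCG (0.72% of all windows) were in none, and GAGGAA (23.6%) was in 1, the UGCG window, where it is not capitalised. None of these matches is a measured binding site.

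**Figure D1:**
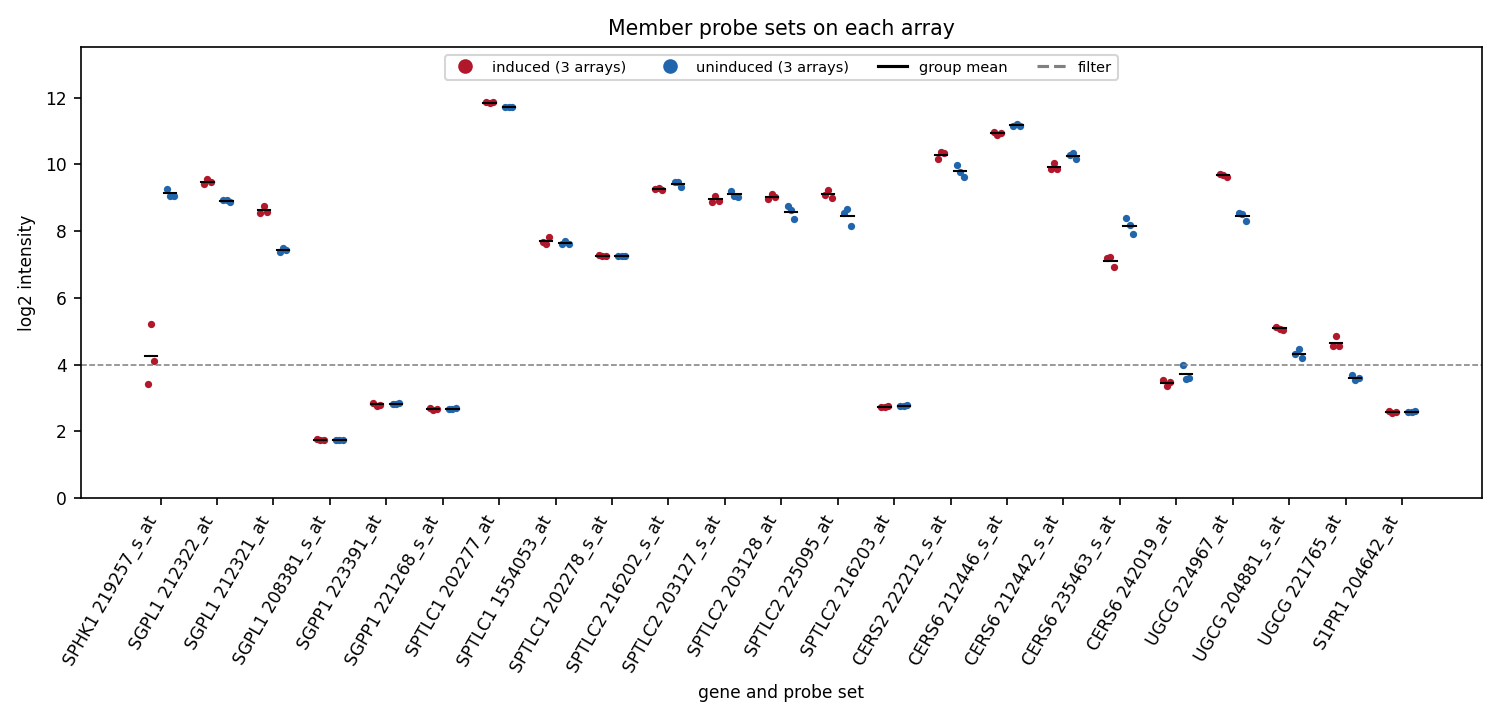
Log2 intensity (vertical axis) of all 23 probe sets (horizontal axis, grouped by gene), with induced arrays in red and uninduced arrays in blue, 3 points each, a black line at each group mean and a dashed line at the filter of 4. SPHK1 shows the widest gap between groups, 3.43 to 5.23 in induced and 9.06 to 9.27 in uninduced cells, and 6 probe sets lie below the filter on every array.

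SGPL1, the lyase of the endoplasmic reticulum that splits S1P and so ends the pathway, was higher in induced cells in both of its measured probe sets. Probe set 212321_at read 8.55, 8.75 and 8.57 in induced cells, against 7.36, 7.49 and 7.44 in uninduced cells. Probe set 212322_at read 9.41, 9.55 and 9.48 in induced cells, against 8.94, 8.94 and 8.86 in uninduced cells. The groups were separate in both, and the differences were 1.19 and 0.57, or 2.29-fold and 1.48-fold higher. The remaining SGPL1 probe set, 208381_s_at, lay between 1.74 and 1.76 on all arrays. SGPP1, a phosphatase that returns S1P to sphingosine, was below the filter on every array: its 2 probe sets lay between 2.63 and 2.87, with differences of -0.022 and -0.015 between the group means.

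The 2 subunits of serine palmitoyltransferase differed little or in opposite senses between probe sets. SPTLC1, the subunit shared by all forms of the enzyme, had differences of 0.14 (202277_at), 0.06 (1554053_at) and 0.0045 (202278_s_at), and only for the first did the groups not overlap. Probe sets 1554053_at and 202278_s_at turned negative after quantile normalization, at -0.03 and -0.10, and after centring on the measured probe sets, at -0.016 and -0.07. The last was also negative without induced replicate 1, at -0.0036. SPTLC2, a catalytic subunit, gave no single answer. Its probe set 225095_at read 9.08, 9.22 and 8.99 in induced cells, against 8.54, 8.65 and 8.15 in uninduced cells, and 203128_at read 8.97, 9.12 and 9.02 in induced cells, against 8.76, 8.62 and 8.37 in uninduced cells. These were higher by 0.65 and 0.45, without overlap, and uninduced replicate 3 was the lowest array in both; without it the differences were 0.50 and 0.34. Probe set 216202_s_at read 9.27, 9.30 and 9.23 in induced cells, against 9.46, 9.46 and 9.32 in uninduced cells. With 203127_s_at it differed by -0.15, and the groups overlapped in 203127_s_at and not in 216202_s_at. The remaining SPTLC2 probe set, 216203_at, lay between 2.72 and 2.78 throughout. Which part of a transcript each probe set covers was not analysed here.

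The ceramide synthases CERS2 and CERS6 differed in opposite directions. CERS2, which makes ceramides with very long acyl chains, read 10.17, 10.38 and 10.32 in induced cells, against 9.98, 9.78 and 9.63 in uninduced cells, a difference of 0.49 (1.41-fold higher). CERS6, which makes ceramides with shorter chains, was lower in its 3 measured probe sets, with log2 differences of -1.05 to -0.24. The widest of these differences was in 235463_s_at, which read 7.19, 7.23 and 6.92 in induced cells, against 8.39, 8.18 and 7.92 in uninduced cells. The brighter 212446_s_at read 10.95, 10.89 and 10.94 in induced cells, against 11.16, 11.21 and 11.13 in uninduced cells. No CERS2 or measured CERS6 probe set had overlapping groups, and the size of the CERS6 difference depended on the probe set, from 1.18-fold to 2.07-fold lower. The fourth CERS6 probe set, 242019_at, lay between 3.36 and 3.98, below the filter.

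UGCG, which adds glucose to ceramide and so opens glycosphingolipid synthesis, was higher in induced cells in all 3 of its probe sets. Probe set 224967_at read 9.72, 9.68 and 9.63 in induced cells, against 8.54, 8.51 and 8.31 in uninduced cells, a difference of 1.23 (2.34-fold higher). The dimmer 204881_s_at was higher by 0.76. Probe set 221765_at read 4.57, 4.85 and 4.56 in induced cells, against 3.68, 3.54 and 3.60 in uninduced cells, and is at least 1.58-fold higher against the filter level. It was measured only through the induced arrays, so its separation follows from the filter.

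In the limma fit over all 20552 measured probe sets, 8 of the 17 measured probe sets of these genes were past an adjusted p of 0.05 as higher and 4 as lower, where 34.6% of all probe sets were called higher and 27.9% lower, or 62.5% in all. Groups did not overlap in 14 of the 17, against 70.2% of all measured probe sets. Both the 8 and the 14 include UGCG 221765_at, whose separation follows from the filter. Because the genes were chosen on this contrast, nothing is read from these counts. The median difference of the 17 was 0.14, beside 0.03 over all measured probe sets. The 12 calls were 3 for UGCG, with 221765_at among them, 3 for CERS6, 2 for SGPL1, 2 for SPTLC2 and 1 each for SPHK1 and CERS2. They describe genes chosen on this contrast and are no test of any of them.

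**Figure D2:**
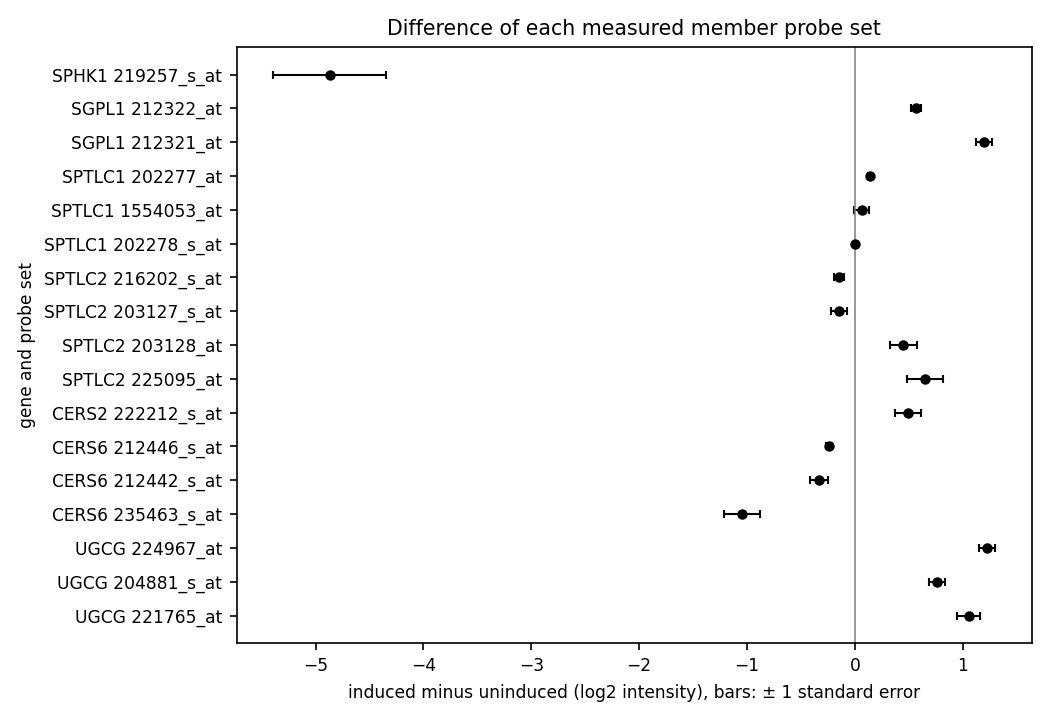
Difference between induced and uninduced means in log2 intensity (horizontal axis) for the 17 measured probe sets (vertical axis), with bars of 1 standard error either side. SPHK1 lies at -4.87 with the widest bar, the 3 CERS6 probe sets lie between -1.05 and -0.24, the 2 SGPL1 and 3 UGCG probe sets lie between 0.57 and 1.23, and SPTLC2 lies on both sides of 0.

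S1PR1, the receptor through which lymphocytes leave lymphoid organs, was at 2.62, 2.55 and 2.57 in induced cells, against 2.58, 2.59 and 2.61 in uninduced cells, below the filter throughout. The remaining receptors belong to a list of 57 further sphingolipid genes and were tested. That list was also chosen with earlier results of these data known, which its p-values do not allow for. S1PR4, a receptor found mainly on haematopoietic cells, read 8.16, 8.26 and 8.22 in induced cells, against 9.12, 9.09 and 9.03 in uninduced cells, and was 1.82-fold lower (limma, adjusted p = 2.78e-05). S1PR3, a more widely expressed receptor, averaged 8.98 ± 0.12 in induced and 9.20 ± 0.06 in uninduced cells (SD, n = 3 each), a difference of -0.22 just past the threshold (adjusted p = 0.0458, and 0.0103 to 0.126 over the alternatives). That call was lost without induced replicate 1 (adjusted p = 0.125), induced replicate 3 (0.0814), uninduced replicate 1 (0.126) or uninduced replicate 2 (0.116), with no filter (0.093) and after median centring (0.0837). S1PR2 differed by -0.18 and did not pass (adjusted p = 0.0638), though it did after quantile normalization (-0.39, adjusted p = 0.0105) and without uninduced replicate 1 (-0.23, adjusted p = 0.0478). S1PR5 was below the filter, with its 3 probe sets between 1.77 and 2.38.

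**Figure D3:**
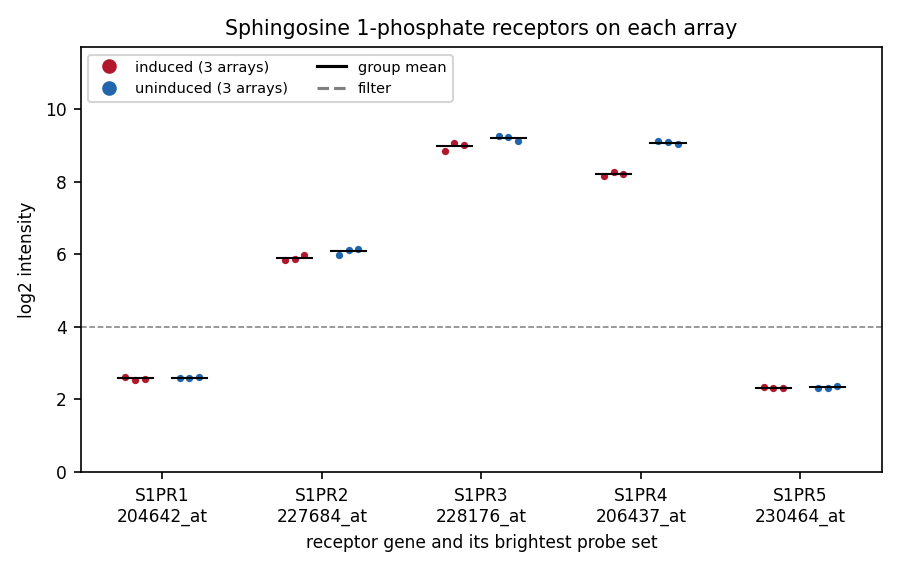
Log2 intensity (vertical axis) of the brightest probe set of each of the 5 S1P receptor genes (horizontal axis), with induced arrays in red and uninduced arrays in blue, 3 points each, a black line at each mean and a dashed line at the filter of 4. S1PR4 is lower in all 3 induced arrays (8.16 to 8.26) than in the uninduced arrays (9.03 to 9.12), and S1PR1 and S1PR5 lie below the filter in both groups.

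Of the 57 further sphingolipid genes 36 were measured, each represented by its brightest measured probe set. Of these 14 rose and 11 fell, and the test was not passed by 11. Over all 9836 measured genes 35.8% were called higher and 30.7% lower, or 66.5% in all. The counts by role below stand beside these shares, and nothing is read from such small counts. The median difference of the 36 genes was 0.17, beside 0.02 over all genes. A further 14 genes of the list were below the filter, and 7 had no probe set naming them alone and were not analysed here.

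In the early, de novo part of the pathway 2 of 6 measured genes rose and 1 fell. ORMDL2 and ORMDL1 encode related regulators that restrain serine palmitoyltransferase. ORMDL2 was 1.56-fold higher (limma, adjusted p = 3.69e-04) and ORMDL1 1.40-fold lower (adjusted p = 6.89e-04), the ORMDL1 call resting on 1 of its 3 measured probe sets; the mean over those 3 gave -0.16 for ORMDL1. DEGS1, the desaturase that completes ceramide, was 1.32-fold higher (adjusted p = 0.0014). Among the remaining ceramide synthases CERS5, whose products have chains like those of CERS6, read 10.27, 10.47 and 10.20 in induced cells, against 8.64, 8.74 and 8.29 in uninduced cells. It was 3.38-fold higher (adjusted p = 3.74e-05), the largest rise of the 36 measured genes of that list. CERS4 differed by 0.31 and did not pass (adjusted p = 0.0825), but did without uninduced replicate 2 (0.41, adjusted p = 0.0354).

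The 2 measured ceramidases, which release sphingosine from ceramide, changed in opposite directions. ASAH1, the acid ceramidase of the lysosome, fell in all 4 of its measured probe sets, and the brightest averaged 11.17 ± 0.06 in induced and 12.04 ± 0.02 in uninduced cells (SD, n = 3 each), 1.83-fold lower (limma, adjusted p = 2.53e-05). ACER3, an alkaline ceramidase, rose in all 4 of its measured probe sets, and the brightest averaged 9.82 ± 0.06 in induced and 8.86 ± 0.14 in uninduced cells, 1.95-fold higher (adjusted p = 7.69e-05).

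Of the 5 measured genes of sphingomyelin synthesis and breakdown 3 rose and none fell, where 66.5% of all measured genes were called. The 3 are synthases that use ceramide. The sphingomyelinases SMPD1 and SMPD2 release it and are named after their values were seen. They differed by 0.24 and -0.11 and did not pass (limma, adjusted p = 0.0940 and 0.220). SMPD1 lay near the filter, between 3.68 and 4.24, with 1 of 3 uninduced arrays above it. No contrast between synthases and sphingomyelinases is read from so few genes. SAMD8, a synthase of ceramide phosphoethanolamine, read 9.79, 9.62 and 9.77 in induced cells, against 8.18, 8.10 and 8.00 in uninduced cells, 3.10-fold higher (limma, adjusted p = 5.24e-06). SGMS2, a sphingomyelin synthase, was 1.65-fold higher (adjusted p = 4.21e-04). SGMS1, the sphingomyelin synthase of the Golgi, was 1.20-fold higher (adjusted p = 0.0215). The SGMS1 call was lost after quantile normalization (0.21, adjusted p = 0.0548), after centring on the measured probe sets (0.19, adjusted p = 0.100) and without induced replicate 1 (0.0700), induced replicate 3 (0.0791), uninduced replicate 1 (0.0548) or uninduced replicate 3 (0.0501).

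Genes of ceramide transfer and phosphorylation rose in 2 of 5 cases and fell in 2. CERT1, which carries ceramide to the Golgi for sphingomyelin synthesis, rose in all 4 of its measured probe sets and was 1.85-fold higher in the brightest (limma, adjusted p = 5.30e-05). CPTP, a transfer protein for ceramide phosphate, was 1.53-fold higher (adjusted p = 2.26e-04). PLEKHA8, which transfers glucosylceramide, was 2.31-fold lower (adjusted p = 1.97e-04). CERK and GLTP are named after their values were seen. CERK, which phosphorylates ceramide, was 1.73-fold lower (adjusted p = 4.04e-04). GLTP did not pass in its brightest probe set (0.20, adjusted p = 0.0550), but its probe set 219267_at was called higher (0.36, adjusted p = 0.0075).

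Glycosphingolipid genes were split, with 5 of 9 measured genes higher and 4 lower. B4GALT6 and GBA2, among these 9, are named after their values were seen. The lower call of B4GALT6 was lost with no filter and without induced replicate 2, induced replicate 3, uninduced replicate 1 or uninduced replicate 2. The higher call of GBA2 was lost after quantile normalization. GALC, a lysosomal galactosidase, averaged 9.92 ± 0.03 in induced and 8.81 ± 0.06 in uninduced cells (SD, n = 3 each) and was 2.15-fold higher (limma, adjusted p = 9.96e-06). B4GALT5, which extends the product of UGCG to lactosylceramide, averaged 10.84 ± 0.05 in induced and 11.92 ± 0.09 in uninduced cells, and its 2 measured probe sets both fell, the brighter by 2.12-fold (adjusted p = 1.71e-05). GLA, a lysosomal enzyme that degrades globosides, averaged 8.37 ± 0.08 in induced and 9.79 ± 0.16 in uninduced cells, 2.69-fold lower (adjusted p = 2.03e-05).

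Among the genes of S1P dephosphorylation, export and breakdown 1 of 4 measured genes fell and none rose. ABCC1, a multidrug exporter that can carry S1P, averaged 8.01 ± 0.12 in induced and 8.92 ± 0.11 in uninduced cells (SD, n = 3 each), 1.88-fold lower (limma, adjusted p = 1.27e-04). The lipid phosphatases PLPP1 and PLPP3 differed by 0.11 and -0.07 and did not pass (adjusted p = 0.228 and 0.426), and PLPP3 passed after quantile normalization (-0.26, adjusted p = 0.0139).

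**Figure D4:**
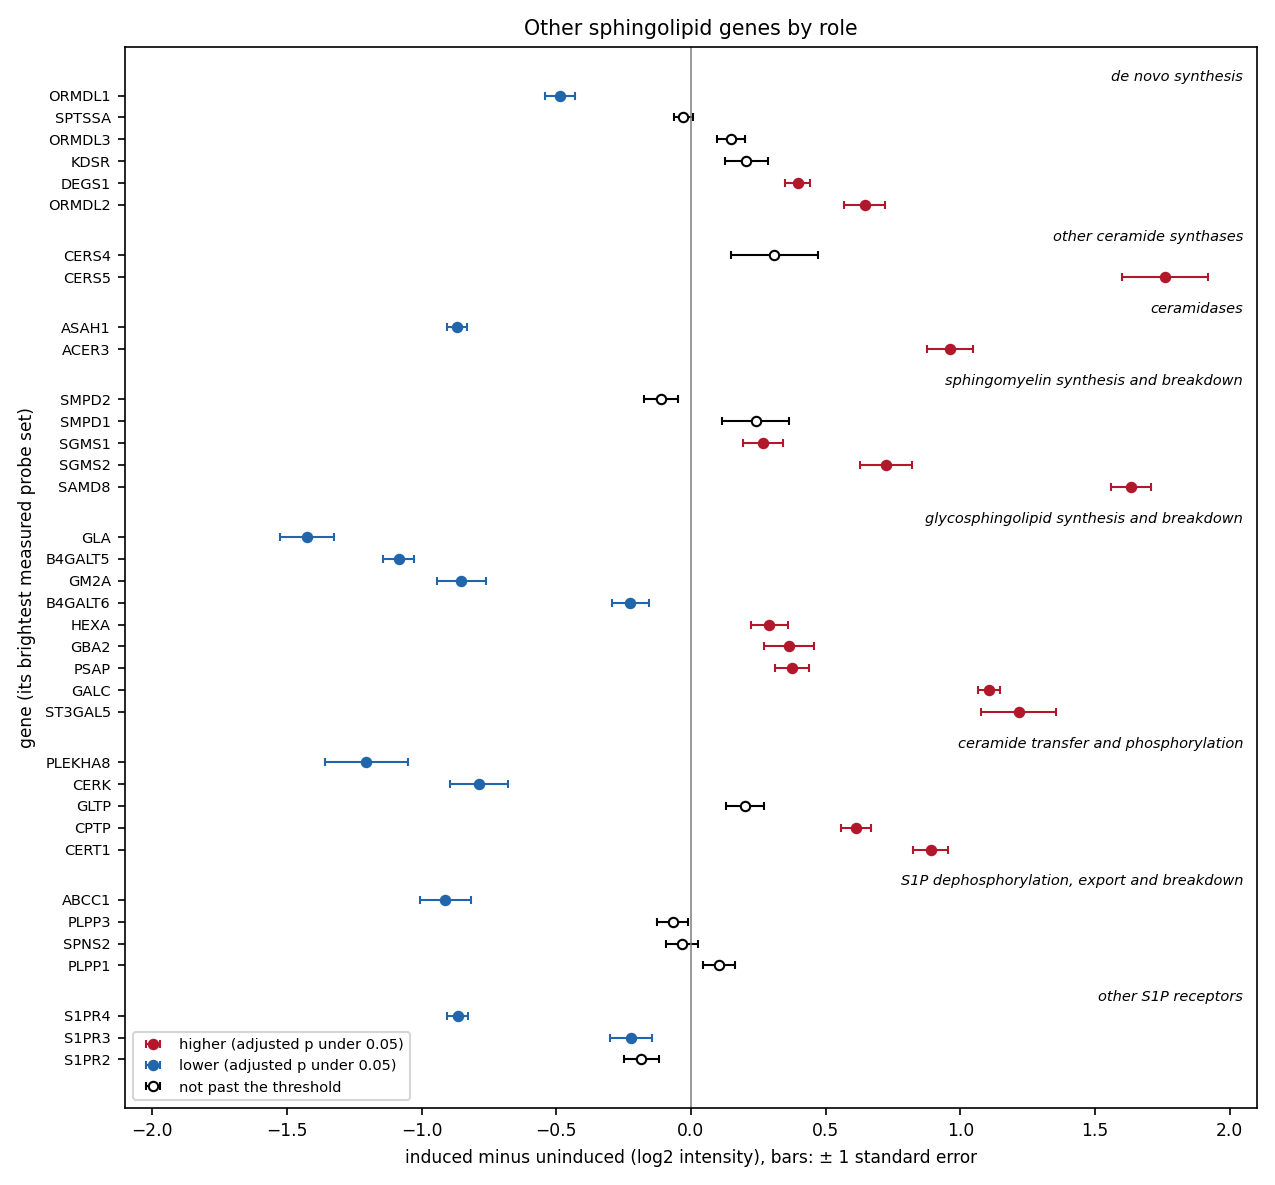
Difference between induced and uninduced means in log2 intensity (horizontal axis) for the 36 measured sphingolipid genes of the further list (vertical axis), grouped by role, with bars of 1 standard error either side. Filled red points rose, filled blue points fell and open points did not pass an adjusted p of 0.05; CERS5 (1.76) and SAMD8 (1.63) lie farthest to the right and GLA (-1.43) and PLEKHA8 (-1.21) farthest to the left.

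The genes whose pattern over the 6 arrays was most like that of SPHK1, by Pearson's r over 6 values among 9829 other genes, were DRG1 (0.9990), EEF1AKMT3 (0.9986), DOK3 (0.9984), RPP25L (0.9977) and GLRX5 (0.9976). All 5 were lower in induced cells, with log2 differences of -0.93 to -0.45, beside -4.87 for SPHK1. Because the arrays form 2 groups, a high r is common: 1741 genes had an r above 0.95 and 176 above 0.99. Which genes come first also rests on the spread of the 3 induced SPHK1 values, of which only 2 were above the filter.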

How the data were processed

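The deposited values are linear intensities, 1 for each probe set on each of the 6 arrays, from 0.914 to 122290. Per the submitters' processing notes, the authors used GCRMA to make these intensities. It adjusts the background by probe sequence, normalizes and summarises probes, and draws dim signals together at a low level. No source used here states its version or whether all arrays were normalized together. The log2 was taken after raising 6 values under 1 to 1, and 62 control probe sets were left out. Genes were named from GEO's platform annotation, only where it gives 1 symbol. Groups follow the sample titles. The test was limma's moderated, two-sided one (version 3.58.1, R 4.3.3) without covariates; p-values were adjusted by Benjamini-Hochberg over 20552 probe sets, at a threshold of 0.05. "Rose" and "fell" are used of the further sphingolipid genes past it. The fit was tested on simulated data. A fold is 2 to the power of a log2 difference, given where all 6 arrays were above the filter; "at least" sets the brighter mean against a log2 value of 4.

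The members and the gene lists were chosen with earlier results of these data known. Genes named from the further list are up to 3 per role with the smallest adjusted p, and every receptor, apart from those marked as named after their values were seen. Alternatives changed the filter (none, or a log2 value of 6), the scaling (quantile normalization, median centring), the variance model (trended and robust), the design (a block for the replicate number, each array left out) and the summary of a gene (mean of its probe sets). Raising values under a log2 value of 4 to 4 and centring on the measured probe sets were chosen after seeing the data. Promoter windows are RefSeq's, on GRCh38.p14, matched by symbol for 8 of the 10 genes. No genome was used. Plots were made in Python 3.11.15 with matplotlib 3.10.9.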

Additional observations from a re-analysis of the deposited data

How the results depend on the processing

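SPHK1 was lower in all 14 alternatives, with log2 differences of -5.36 to -4.46, and of -4.68 with values under the filter raised to it. UGCG 221765_at was no longer measured without any 1 induced array, and with the stricter filter neither it nor UGCG 204881_s_at was. Calls over these probe sets numbered between 6 and 9 higher and 4 and 6 lower, from which nothing is read because the contrast chose the genes. Over the array they numbered between 6107 and 7195 higher and 4770 and 8111 lower. SPTLC2 216202_s_at and 203127_s_at were called lower after quantile normalization and after centring on the measured probe sets. The first was also called lower without uninduced replicate 3. SPTLC1 202277_at was called higher with no filter and with the trended and robust variance model. These calls of SPTLC2 and SPTLC1 are likewise a description and no test, because the contrast chose the genes. Calls over the further sphingolipid genes numbered between 13 and 15 higher and 9 and 13 lower. PLPP1 changed sign after quantile normalization, at -0.016 (limma, adjusted p = 0.846), and the cause was not tested. Quantile normalization and centring on the measured probe sets shifted the differences by a median of -0.0755 and -0.0794 and made lower calls the more frequent over the array, with 6750 higher and 8111 lower and with 6573 and 7124, against 7112 and 5733.

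In the fit with a replicate block 8 probe sets of these genes were called higher and 4 lower. Among the further genes 14 were higher and 9 lower, S1PR3 (limma, adjusted p = 0.0724) and B4GALT6, named here after its values were seen, being lost. Over the array that fit called 7099 of 20552 probe sets higher and 5710 lower, and nothing is read from these counts. Same-numbered arrays of the groups correlated in their deviations at -0.17, 0.00046 and 0.18, and 1 of 3 induced arrays correlated best with its own number, so the numbers do not show a pairing. The table has no detection calls, so values under the filter have no order.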
